A study of Mus musculus with 9 samples.

Results

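Distal MyoD1 sites that held both the E-box preferred by MyoD1 and the AP-1 motif were described in C2C12 mouse myoblasts at endogenous and raised MyoD1 levels. Peaks of the 6 libraries were merged where they overlapped or touched, which gave 18774 regions called in 2 or more libraries. A region was distal when its centre lay more than 10 kb from every annotated transcript start and off coding exons, and 5635 regions met this. The sites described here are the 2270 distal regions whose merged interval held at least 1 E-box with the central bases G then C (CAGCTG) and at least 1 AP-1 heptamer (TGACTCA, or TGAGTCA on the other strand). They were 12.1% of all regions and 40.3% of distal regions. The other distal regions were 2403 with the E-box only, 435 with AP-1 only and 527 with neither.

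The cells were 1 clone of C2C12, an immortal myoblast line. All 6 libraries came from this clone, which carries MyoD1 fused to 3xFlag and Halo at its own locus on every allele, and an added dox-inducible 3xF-Halo-MyoD1 copy. The no dox group (3 biological replicates) was kept without doxycycline, and the +dox group (3 biological replicates) received it for 6 h, both in differentiation medium. The tagged protein was mapped by CUT and RUN, in which an anti-Flag antibody brings micrococcal nuclease to the chromatin under the protein. In +dox cultures not every nucleus is induced, and a change per cell cannot be told apart from a change in the share of induced cells. The antibody sees the fused protein from either source. The 3 wild-type libraries were not analysed here, so no background from cells without a tag stands beside the values.

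MyoD1 is a basic helix-loop-helix factor that binds E-boxes as a dimer with an E protein and starts the muscle programme. AP-1 is a dimer of FOS and JUN family proteins, which respond to growth factors and stress, and its motif is common in enhancers that are open in dividing myoblasts. JUN is known to bind MyoD1 and to restrain it. A motif in an interval does not say which protein sat there, and the antibody reports tagged MyoD1 only.

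The sequences below show how close the motifs can lie. The first 6 are the sites with the shortest distance between an E-box and an AP-1 heptamer, here 0 bp. Capitals mark both motifs. All are given 5′ to 3′ on the plus strand of mm10.
Rxra, chr2:27775740-27775782: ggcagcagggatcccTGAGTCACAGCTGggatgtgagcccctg
Kifc3, chr8:95154717-95154759: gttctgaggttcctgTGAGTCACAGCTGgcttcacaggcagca
Iffo2, chr4:139500887-139500929: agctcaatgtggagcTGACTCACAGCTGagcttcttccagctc
Tenm4, chr7:96153167-96153209: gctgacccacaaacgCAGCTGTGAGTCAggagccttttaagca
Oxr1, chr15:41612378-41612420: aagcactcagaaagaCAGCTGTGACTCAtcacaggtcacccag
Actn4, chr7:28930825-28930867: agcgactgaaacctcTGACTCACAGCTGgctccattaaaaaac
Each is named after the protein-coding gene with the nearest transcript start. Both motifs read the same on either strand except for the central base of AP-1, so all 6 hold 1 composite element in one direction or the other. In the merged regions 14 of the 2270 sites had motifs that adjoined in this way. A further 3 sequences come from sites among the 8 with the highest peaks.
Runx1, chr16:93006807-93006870: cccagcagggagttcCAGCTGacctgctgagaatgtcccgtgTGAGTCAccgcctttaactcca
Shb, chr4:45472890-45472939: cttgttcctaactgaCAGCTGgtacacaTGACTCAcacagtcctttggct
Reep1, chr6:71757378-71757453: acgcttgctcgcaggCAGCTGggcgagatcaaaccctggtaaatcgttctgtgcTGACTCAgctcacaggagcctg
At Runx1 and Reep1 the pair lay within 100 bp of the maximum in 6 of 6 libraries. At Shb the pair, at 7 bp the closest of the 3, lay within 100 bp of the maximum in 0 of 6 libraries. So a close pair in a high peak was not always near the summit of its signal.

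The lists differed in depth and length. Depths, read from the step between maximum signals, which is the worth of 1 alignment in CPM, lay between 2868000 and 8030000 alignments, and lists held between 9389 and 53661 peaks. The longest list and the greatest depth were both those of +dox replicate 3. Both libraries numbered 3 stood apart: their lowest total signals (coverage in CPM summed over a peak) were 353.5 and 336.2, and those of the other 4 lay between 836.8 and 903.6. Of the 2270 sites, 476 were called in exactly these 2 libraries, or 21%, against 12.8% of all regions and 22.7% of all distal regions. In 2 or more of the 4 libraries numbered 1 or 2, 1254 sites were called, or 55.2%, against 63.9% of all regions and 50.6% of all distal regions.

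Sites with both motifs were called in more libraries than other distal regions. In all 6 libraries 657 sites had a peak, or 28.9%, and 25.8% of all regions did. For distal regions with the E-box only the share was 21.7%, with AP-1 only 11.7% and with neither 7.78%. Each list that calls a region can widen its merged interval, and a wider interval is likelier to hold both motifs. So the rule itself ties class to the number of calls, and the shares were not compared at equal width. Exactly 2 libraries called 772 of the sites (34.0%, against 31.9% of all regions) and exactly 3 called 354 (15.6%, the same share as of all regions). Exactly 4 called 246 (10.8%, against 12.4%) and exactly 5 called 241 (10.6%, against 14.3%). A site called in exactly 2 libraries is at the lower limit of the rule. At the distance limit, 108 sites had a centre 10 to 11 kb from the nearest transcript start, and 111 regions with both motifs, left out by the rule, lay 9 to 10 kb from one.

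More sites were called with dox in each pair of same-numbered libraries, by a margin within the spread between libraries of a group. No dox replicates 1, 2 and 3 called 978, 1330 and 1781 of the 2270 sites, or 43.1%, 58.6% and 78.5%. The +dox replicates called 1053, 1337 and 2258, or 46.4%, 58.9% and 99.5%. The rise was from 43.1% to 46.4%, from 58.6% to 58.9% and from 78.5% to 99.5% in the 3 pairs, so most of it lay in the libraries numbered 3. Over all regions the shares rose from 45.5% to 59.2%, from 63.1% to 64.04% and from 57.9% to 96.7%. That rise was larger in each pair, so the rise at the sites was not particular to them. Taken as 2 groups, the libraries overlapped. The means were 60.04% ± 17.7 without dox and 68.3% ± 27.8 with dox (SD, n = 3), a difference of 8.21 percentage points (p = 0.6 by an exact, two-sided permutation test, and 0.667 once adjusted over 10 tests). With 3 libraries a group the smallest possible p is 0.1. Taken as pairs, the exact sign-flip p was 0.25, the smallest that 3 pairs allow. Without +dox replicate 3 the difference was -7.40, and without no dox replicate 1 it was -0.27. With replicates 1 and 2 only it was 1.81. The sites were chosen by calls in 2 or more of these same lists, so their shares are tied to the rule. The longest list was that of +dox replicate 3, and 476 sites qualified through the libraries numbered 3 alone. The 99.5% is thus partly set by the rule, and neither test can separate a change with dox from this choice.

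**Figure D1:**
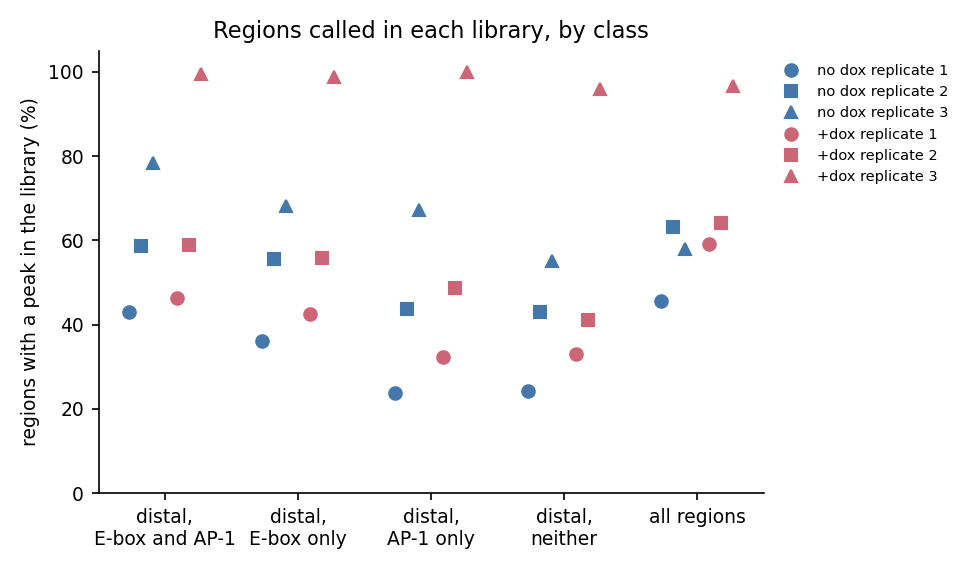
Share of regions with a peak in each library (y axis, percent) for the 4 classes of distal region and for all regions. Each symbol is 1 library. Among sites with both motifs the groups overlap, and +dox replicate 3 stands at 99.5%.

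Few sites were called in all libraries of one group and in none of the other. The pattern of 3 of 3 +dox and 0 of 3 no dox libraries was met by 32 of the 2270 sites, or 1.41%, and by 3.38% of all regions. The reverse pattern was met by 0 sites and by 0.0266% of all regions. With the looser pattern of 2 or more +dox and at most 1 no dox libraries, 450 sites or 19.8% were counted, and 28.4% of all regions. For 2 or more no dox and at most 1 +dox libraries there were 173 sites or 7.62%, and 5.11% of all regions. In the distal class most like them, E-box only, these shares were 24.7% and 6.62%, and over all distal regions 23.5% and 7.05%. So the larger share called mostly without dox was one that distal regions had in common. These shares were not tested.

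Among the 32 sites called only with dox, the 6 with the highest peaks lay near Slc24a4, Usp46, Aox2, Ptpn1, Kcnj12 and Rap1a. The site in an intron of Slc24a4, a gene for a sodium, calcium and potassium exchanger, lay at chr12:102190751-102191850. Its maximum signal was 22.3, 14.5 and 7.72 CPM in +dox replicates 1, 2 and 3. The site in an intron of Kcnj12, which encodes an inward rectifier potassium channel, lay at chr11:61042551-61044050, with 11.2, 10.6 and 8.97 CPM. Both stood far below the highest peaks. The site nearest to Rap1a, a small GTPase of cell adhesion, lay at chr3:105825451-105826250, and its motifs stood 11 bp apart.
Rap1a, chr3:105825769-105825822: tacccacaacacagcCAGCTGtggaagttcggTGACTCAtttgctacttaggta
That pair is shown because it is the closest of these 6 sites. Its maximum signal was 14.6, 8.34 and 5.23 CPM in the +dox libraries.

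In the other direction, 22 sites were called in 3 of 3 no dox libraries and at most 1 +dox library, or 0.969%, near the 0.65% of all regions and the 0.852% of all distal regions. The 4 with the highest no dox peaks lay near Fndc1, Sik1, Ndufa10 and Bbc3. Sik1 encodes a salt-inducible kinase that acts on class II HDACs, and the intergenic site at chr17:31825251-31828150 had maximum signals of 5.12, 6.77 and 5.14 CPM in the no dox libraries. It was called once with dox, in replicate 3, at 9.71 CPM. All 4 sites were called in +dox replicate 3 alone among the +dox libraries, at 8.47 to 13.7 CPM. So none of them was absent from the deepest +dox list.

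Peaks at sites with both motifs were higher than at distal regions that lacked the E-box. Height was measured as the percentile of maximum signal within a list, taking the highest peak of a region. The median over sites was 61.5, 64.3 and 66.0 in no dox replicates 1, 2 and 3, and 52.8, 60.5 and 89.3 in the +dox replicates. Distal regions with AP-1 only had medians of 48.5, 51.0 and 55.3 without dox and 45.3, 46.9 and 82.2 with dox. The sites were higher in 6 of 6 libraries, by 10.9 ± 2.92 percentile points (SD of the difference, n = 6 libraries). The exact two-sided sign-flip test gave p = 0.031, the smallest that 6 libraries allow. The adjusted p was 0.0625, so neither this nor any other difference between classes could pass 0.05 after adjustment. Classes were set by motifs in the merged intervals of these same peaks, and a high peak may widen its interval. So the tests of height between classes are not independent of the rule. Over regions with neither motif the sites were higher by 19.1 ± 6.07 in 6 of 6 libraries (SD, n = 6, exact p = 0.031, adjusted p = 0.0625). With lists of equal length the difference from AP-1 only regions was 18.2. With uncalled regions counted at 0 the differences were 13.1 from AP-1 only and 19.0 from neither, each with p = 0.125 by the exact sign-flip test.

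Against distal regions with the E-box only, the difference was small. Those regions had medians of 61.5, 60.7 and 61.2 without dox and 52.8, 54.4 and 84.0 with dox. The sites with both motifs were higher in 4 libraries and equal in 2, by 3.31 ± 2.68 percentile points (SD, n = 6, exact sign-flip p = 0.125, adjusted p = 0.179). Maximum signals come in whole steps, so medians can tie. Intervals with both motifs were also wider, with a median of 1450 bp against 1300 bp for E-box only, 1150 bp for AP-1 only and 1100 bp for neither. Within 4 bins of width the differences were 1.77 for E-box only, 9.40 for AP-1 only and 16.4 for neither. By total signal, which counts width, the difference from E-box only regions was 6.43.

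**Figure D2:**
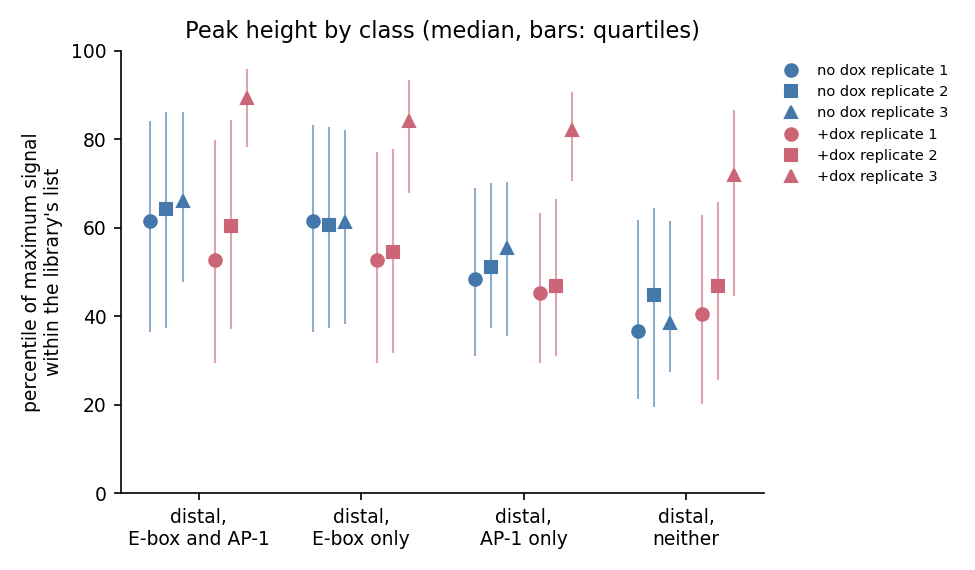
Percentile of maximum signal within the library's own list (y axis) for each class of distal region. Symbols are library medians over called regions and bars span the quartiles. Sites with both motifs lie above AP-1 only and neither in 6 of 6 libraries, and near E-box only.

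Dox left the height of the sites within the spread between libraries. The mean of the medians was 63.9 ± 2.29 without dox and 67.5 ± 19.3 with dox (SD, n = 3), a difference of 3.61 (exact permutation p = 1, adjusted p = 1). The groups overlapped: +dox replicates 1 and 2 lay below all 3 no dox libraries, and replicate 3 lay above them. A percentile in a list of 53661 peaks is not the same measure as in one of 9389. With all lists shortened to 9389 peaks the difference was -2.79, and without +dox replicate 3 it was -7.28.

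The maximum of a peak lay at an E-box more often than at an AP-1 heptamer. An E-box was counted at the maximum when it lay whole within 100 bp of the middle of the stretch of highest signal. This was so for 59.7%, 56.1% and 45.2% of called sites in the no dox libraries and 58.6%, 57.3% and 58.1% in the +dox libraries. For AP-1 the shares were 35.2%, 33.5% and 27.1% without dox and 36.4%, 38.5% and 37.6% with dox. No dox replicate 3 was lowest in both. The E-box share was higher in 6 of 6 libraries, by 21.1 ± 2.44 percentage points (SD, n = 6, exact sign-flip p = 0.031, adjusted p = 0.0625). The sites held a mean of 2.22 E-boxes and 1.42 AP-1 heptamers. Among the 613 sites with 1 of each the difference was 12.8 points, again with p = 0.031 by the exact test.

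Each motif was less often at the maximum where it shared the region. The E-box stood at the maximum of 69.6%, 60.6% and 48.8% of E-box only regions without dox and 66.0%, 66.7% and 63.7% with dox. The sites with both motifs were lower in 6 of 6 libraries, by a mean of -6.72 ± 2.60 points (SD, n = 6, exact p = 0.031, adjusted p = 0.0625). AP-1 stood at the maximum of 46.6%, 34.7% and 37.0% of AP-1 only regions without dox and 46.8%, 46.7% and 49.4% with dox. Here too the sites with both were lower in 6 of 6 libraries, by -8.83 ± 3.95 points (SD, n = 6, exact p = 0.031, adjusted p = 0.0625). With regions of 1 copy of each motif held, the differences were -3.66 for the E-box (exact sign-flip p = 0.0625) and -8.34 for AP-1 (exact p = 0.031). Intervals with both motifs were also wider, at a median of 1450 bp against 1300 bp for E-box only and 1150 bp for AP-1 only. Within 4 bins of width the differences were -5.22 for the E-box (exact sign-flip p = 0.031) and -6.87 for AP-1 (exact p = 0.0625). Both motifs stood at the maximum in 14.0% to 22.7% of called sites, and neither in 25.7% to 41.8%.

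**Figure D3:**
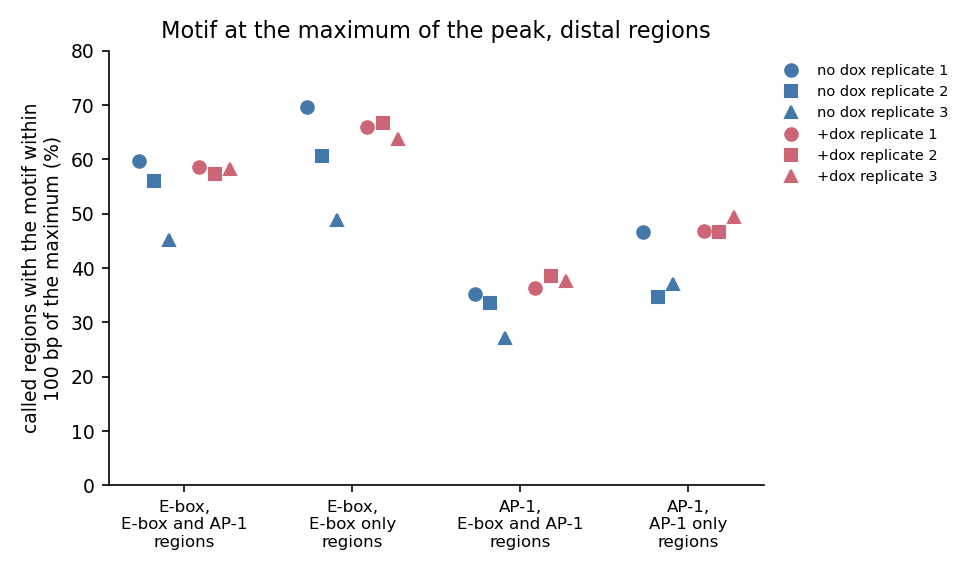
Share of called regions with the motif within 100 bp of the maximum (y axis, percent) in regions that hold it alone or with the other motif. Each symbol is 1 library. The E-box shares of sites with both motifs lie between 45.2% and 59.7%, and their AP-1 shares between 27.1% and 38.5%.

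With dox the AP-1 share at the maximum was higher, by a margin that this design cannot resolve. The means were 37.5% ± 1.08 with dox and 31.9% ± 4.29 without (SD, n = 3), a difference of 5.57 points, and the groups did not overlap. The exact permutation p was 0.1, the smallest possible, with an adjusted p of 0.167. With replicates 1 and 2 only the difference was 3.09. In AP-1 only regions the share was also higher with dox in each pair. There it was 46.6%, 34.7% and 37.0% without dox and 46.8%, 46.7% and 49.4% with dox. So the higher share was not particular to sites with both motifs. For the E-box the means were 58.0% ± 0.662 with dox and 53.7% ± 7.55 without (SD, n = 3), a difference of 4.34 (exact p = 0.5, adjusted p = 0.625). That difference rested on the libraries numbered 3: with replicates 1 and 2 only it was 0.042.

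Counted per kb of sequence, both motifs were denser near the maximum than far from it. Within 100 bp of it the E-box occurred 2.87 to 3.96 times per kb over the 6 libraries, and at 500 to 1000 bp 0.840 to 0.876 times. For AP-1 the densities were 1.56 to 2.18 and 0.433 to 0.497 per kb. The ratio of near to far was 3.41 to 4.67 for the E-box and 3.35 to 4.65 for AP-1. So averaged over 100 bp on each side these ratios were alike, while the E-box was the more frequent in both ranges. Closer in they differed. In no dox replicate 1 the E-box had 4.50 and 4.66 per kb at -25 and 25 bp, and 2.99 and 3.54 at -75 and 75 bp. AP-1 had 1.68 and 2.02, and 2.17 and 2.13. The inner rise of the E-box was smallest in no dox replicate 3, with 2.87 and 3.25 against 2.73 and 2.62. In E-box only regions the E-box ratio was 3.51 to 5.78, and in AP-1 only regions the AP-1 ratio was 3.24 to 6.44. These are descriptions, since regions are shared between libraries. Each class holds its motif by the rule, and narrow intervals can hold it only near the maximum. In no dox replicate 1 the sites gave 48.9 kb of sequence in the bin at -25 bp and 16.5 kb at -975 bp. So part of each ratio can come from the rule.

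**Figure D4:**
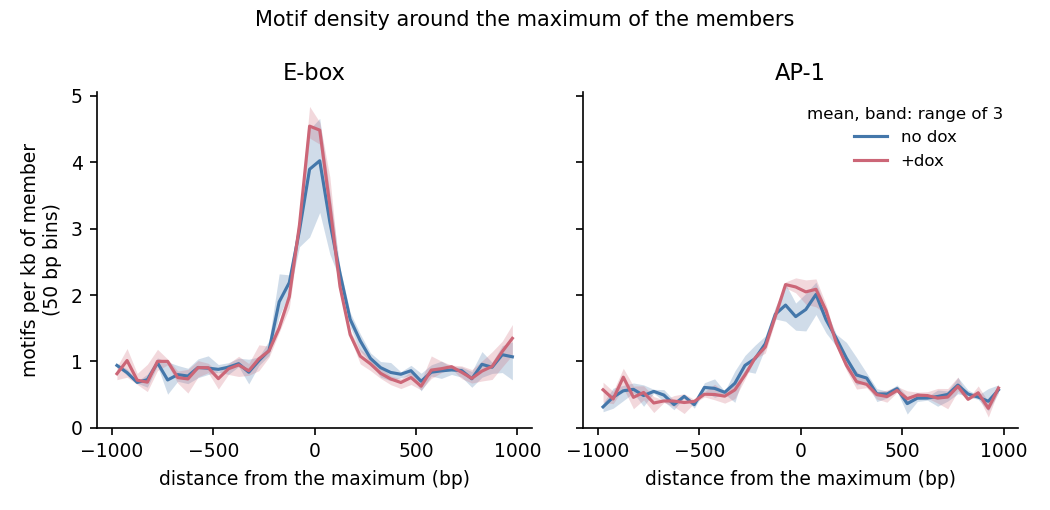
Motifs per kb of the sites with both motifs (y axis) in bins of 50 bp by distance from the maximum (x axis, bp). Lines are means of 3 libraries and bands their range. The E-box peaks at the maximum at about 4 per kb, while AP-1 forms a flat top of about 2 per kb over the inner 100 bp on each side.

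The nearest E-box and AP-1 heptamer of a site lay a median of 135 bp apart, edge to edge, with quartiles of 48 and 318 bp. They lay within 20 bp in 268 sites (11.8%), within 50 bp in 578 (25.5%) and within 100 bp in 951 (41.9%). In 8 sites every pair overlapped. No single spacing stood out, since each distance from 0 to 20 bp was held by 4 to 19 sites. The 2822 regions with both motifs that were not distal had a median of 183 bp, with 20.9% within 50 bp. Distal regions and the rest differ in width and base composition, and the difference in spacing was not tested.

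The bases that flank the E-box were counted near the maximum and in the rest of the interval. Each form stands for itself and its reverse complement, since the core reads the same on both strands. Here ACAGCTGC made up 20.6% of 1657 E-boxes within 100 bp of the maximum and 15.1% of 3386 elsewhere in the sites. GCAGCTGC made up 12.9% and 7.35%. GCAGCTGA made up 7.60% near the maximum and 11.1% elsewhere, and ACAGCTGA 7.42% and 9.66%. E-box only regions had 23.0% ACAGCTGC near the maximum and 17.2% elsewhere. For AP-1, GTGACTCAG was the most frequent form in both places, at 16.9% of 936 heptamers near the maximum and 12.5% of 2287 elsewhere. Flank shares are counts over motifs of shared regions and carry no test.

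Motifs of other muscle enhancer factors were searched in the 200 bp around the highest maximum of each region, on both strands. CACCTG, the E-box form with other central bases, was there in 19.6% of the sites, 20.6% of E-box only and 29.2% of AP-1 only regions, and in 19.3% of all regions. TGTGGT, the core of the RUNX motif, was in 23.7% of the sites and 16.2% of all regions. GGAATG, the core of the TEAD motif, was in 17.1% and 12.5%. These are short words, and all distal regions together held TGTGGT in 24.0% and GGAATG in 16.6%. TGACGTCA, the cAMP response element, which differs from AP-1 by 1 added base, was in 0.308% of the sites and 1.18% of all regions. Words of the MEF2 and SRF motifs were in 0.485% and 1.01% of the sites.

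By position the sites were like other distal regions. The centre of 1287 sites (56.7%) lay within a protein-coding gene, and 56.5% of E-box only regions did so. Only 31 centres lay in an exon, outside its coding part, and 878 lay in no annotated gene. In 221 sites the interval reached coding bases although its centre did not. The median distance to the nearest transcript start was 23918 bp, and to that of a protein-coding gene 38899 bp. GC content was 49.8% at the median and 12.3% of bases were repeat-masked, against 50.8% and 11.5% in E-box only regions.

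Single sites could be followed across groups where all 6 libraries called them. That was so for 657 sites, and the other 1613 were not tested. Maximum signal in CPM was compared on the log2 scale with limma over all 4838 regions called in all 6 libraries. The median difference, +dox minus no dox, was 0.79 for the sites, 0.77 for other distal regions and 0.91 for all regions. No site passed an adjusted p of 0.05 in limma, nor did any region (0% in each direction). At an unadjusted p under 0.05 there were 112 sites (17.0%) and 1173 regions (24.2%). CPM values carry no outside scale, so in a shift of all peaks binding and background cannot be told apart.

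A further fit took the replicate number as a block, which assumes that same-numbered libraries are pairs. It called 277 of the 657 sites up and 0 down, or 42.2%. Of all 4838 regions it called 53.5% up and 0.062% down. The share of sites called was thus below that of all regions. With each library centred on its median over the tested regions, the same blocked fit called 0 sites up and 0 down, with 0% of all regions in either direction, and 96 sites (14.6%) had an unadjusted p under 0.05, against 572 or 11.8% of all regions. The median of the sites was then -0.14, of other distal regions -0.16 and of all regions -0.02. So the called sites rose in CPM along with the tested regions as a whole, and no site passed once that common shift was taken out. Without the block, leaving out +dox replicate 3 gave 123 sites up (18.7%, against 40.4% of all regions) and 3 down (0.103% of all regions were). With replicates 1 and 2 only, 107 sites were up (16.3%, against 35.1% of all regions) and 3 down (against 0.248%).

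The highest peak of all the sites lay 18936 bp from the start of Fgfr4, a receptor for fibroblast growth factors that is active in regenerating muscle. The intergenic site at chr13:55170201-55172950 had maximum signals of 319.5, 375.3 and 126.8 CPM without dox and 856.3, 587.8 and 264.5 CPM with dox. In each pair of same-numbered libraries the +dox value was higher, and across pairs the groups overlapped. The log2 difference was 1.04 ± 0.606 (SE, n = 3 per group, limma adjusted p = 0.2355, and 0.02058 with the replicate block). Its height percentile was 100 in 5 libraries and 99.99 in the other. Its 2 E-boxes and 2 AP-1 heptamers were far apart, the nearest pair by 1060 bp.

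The next sites by mean height percentile were those nearest to Ccnd3, Runx1, Shb and Cdk6. Ccnd3, cyclin D3, which rises as myoblasts leave the cycle, held an intronic site at chr17:47521051-47524200 with 8 E-boxes and 1 AP-1 heptamer. Its maximum signals were 128.4, 152.2 and 71.99 CPM without dox and 348.0, 248.6 and 162.1 CPM with dox. All +dox values were above all no dox values there (log2 difference 1.11 ± 0.564, SE, limma adjusted p = 0.2117, and 0.01474 with the block). The intergenic site nearest to Runx1, a runt-domain factor, lay at chr16:93006051-93007850 and holds the pair shown above. Its signals were 133.1, 173.4 and 66.6 CPM without dox and 281.4, 221.0 and 137.0 CPM with dox (log2 difference 0.82 ± 0.573, SE, limma adjusted p = 0.2908, and 0.06309 with the block). The site in an intron of Shb, an SH2 adaptor protein, lay at chr4:45471951-45476250, with 104.7, 123.3 and 71.1 CPM against 302.6, 170.7 and 93.4 CPM. The groups overlapped at both.

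The site nearest to Cdk6, a kinase partner of D-type cyclins, lay at chr5:3151251-3152950, 191792 bp from its start. Its signals were 108.4, 96.6 and 29.997 CPM without dox and 329.1, 211.3 and 77.2 CPM with dox (log2 difference 1.37 ± 0.641, SE, limma adjusted p = 0.2053, and 0.003462 with the block). The +dox replicate 3 lay below 2 no dox libraries. Sites in introns of Gabbr2, a GABA receptor subunit, and Reep1, which shapes the endoplasmic reticulum, had log2 differences of 1.14 ± 0.621 and 1.05 ± 0.604 (SE, limma adjusted p = 0.221 and 0.2331, and 0.01229 and 0.01988 with the block). The Gabbr2 site had 90.3, 91.2 and 32.997 CPM without dox and 260.5, 172.4 and 64.5 CPM with dox. The Reep1 site had 87.959, 93.5 and 29.997 CPM without dox and 181.3, 169.05 and 71.2 CPM with dox. At both, +dox replicate 3 was below no dox replicates 1 and 2. A site in an intron of Susd1 at chr4:59314851-59316400 had the smallest difference of the 8. Its signals were 81.0, 148.1 and 126.2 CPM without dox and 93.1, 151.3 and 146.2 CPM with dox (log2 difference 0.15 ± 0.550, SE, limma adjusted p = 0.8331).

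With libraries centred on their medians the log2 differences of the high sites shrank to 0.12 at Fgfr4, 0.18 at Ccnd3, 0.44 at Cdk6, 0.21 at Gabbr2 and 0.12 at Reep1. They were -0.10 at Runx1, -0.13 at Shb and -0.78 at Susd1. None of these passed in the blocked fit (limma adjusted p between 0.4046 and 0.9137). So the values above hold on the CPM scale and contain the common shift.

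Of the sites with adjoining motifs, 3 of 14 were called in all 6 libraries, those nearest to Rxra, Kifc3 and Iffo2. Rxra encodes a retinoid X receptor, and its site at chr2:27771401-27776650 had 27.9, 38.8 and 12.9 CPM without dox and 43.9, 58.9 and 49.1 CPM with dox. All +dox values were above all no dox values. The site nearest to Iffo2, at chr4:139499601-139502200, had 11.2, 9.48 and 4.29 CPM without dox and 46.7, 28.4 and 10.5 CPM with dox. Its log2 difference of 1.64 ± 0.620 (SE, limma adjusted p = 0.2034, and 0.000659 with the block) was the largest among the differences given here, and was 0.72 with libraries centred (adjusted p = 0.414 in the blocked limma fit). In the intron of Kifc3, a kinesin gene, the values were 12.1, 14.5 and 6.00 CPM without dox and 24.4, 22.8 and 16.4 CPM with dox. Centred, the log2 differences at Rxra and Kifc3 were 0.14 and 0.12 (adjusted p = 0.9012 and 0.906 in the blocked limma fit). The adjoining pair lay within 100 bp of the maximum in 4 of 6 libraries at Kifc3, 3 of 6 at Iffo2 and 0 of 6 at Rxra.

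**Figure D5:**
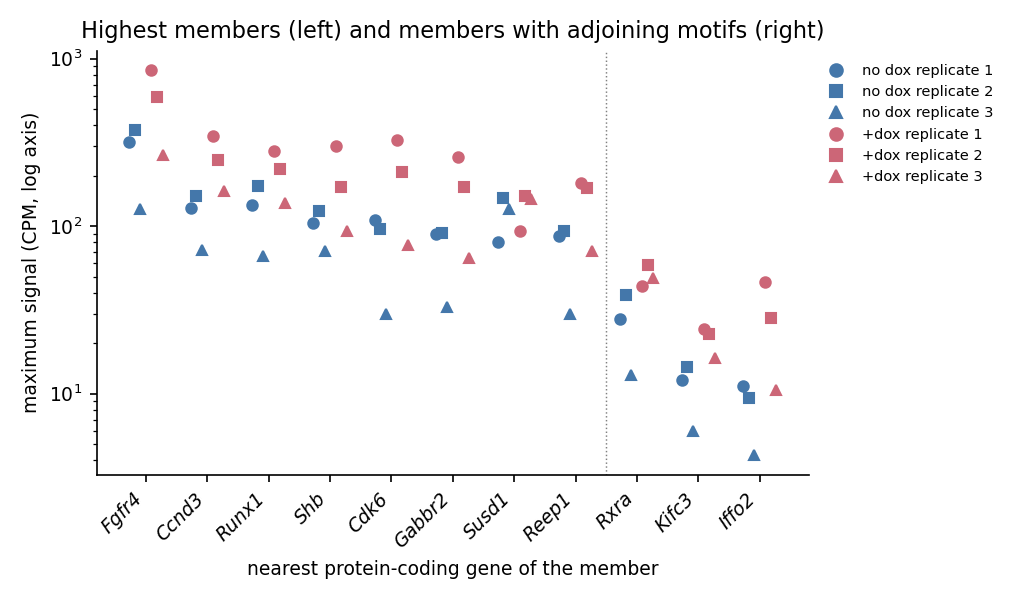
Maximum signal in CPM (y axis, log scale) in each library at the 8 sites with the highest peaks and at the 3 sites with adjoining motifs called in all 6 libraries. Each symbol is 1 library, and names are the nearest protein-coding genes. Signal runs from 856.3 CPM near Fgfr4 down to 4.29 CPM near Iffo2.

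Sites were also grouped by lists of muscle genes, using the nearest protein-coding start, which does not show that a gene is a target. Myogenic regulators and partners, 20 genes, were nearest to 7 sites, or 0.308% of them, and to 0.446% of other distal regions. They were Id3 and Mef2a with 2 each, and Id2, Myod1 and Pax7 with 1 each. Pax7 marks muscle stem cells, and the site in its intron at chr4:139769851-139772350 had 31.4, 41.3 and 13.3 CPM without dox and 30.7, 35.0 and 28.1 CPM with dox. The groups overlapped (log2 difference 0.27 ± 0.571, SE, limma adjusted p = 0.7053). Mef2a, which encodes a partner of MyoD1 at muscle genes, had sites at chr7:67384701-67386150 and chr7:67459201-67460750. The first had 16.8, 19.9 and 39.0 CPM without dox and 26.5, 26.7 and 50.6 CPM with dox, and the second 11.2, 14.0 and 8.999 against 24.4, 29.5 and 19.2 CPM. At the second all +dox values were higher (log2 difference 1.098 ± 0.542, SE, limma adjusted p = 0.2075, and 0.0153 with the block), while at the first the groups overlapped (0.49 ± 0.568, adjusted p = 0.498 in limma). Centred, the difference at the second was 0.17 (adjusted p = 0.8495 in the blocked limma fit).

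AP-1 genes themselves were rarely the nearest. Of 16 genes in the list, Fosl2 and Maf had 1 site each (0.0881% of sites, against 0.327% of other distal regions). Fosl2 encodes the AP-1 subunit FRA2, and its site at chr5:31983551-31985300 lay in an intron of the neighbour Babam2. It was called in 2 libraries of each group, with 1.86 and 4.29 CPM in no dox replicates 1 and 3 and 3.89 and 8.97 CPM in +dox replicates 2 and 3. Maf encodes a related leucine zipper factor, and its site was called in 5 libraries. These were low peaks beside those near Fgfr4.

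Fusion and adhesion genes, 18 in the list, were nearest to 6 sites (0.264%, against 0.446% of other distal regions). These were Ncam1 with 3, and Cadm1, Cdh2 and Itgb5 with 1 each. The site in an intron of Itgb5, an integrin beta subunit, at chr16:33916001-33918450 was the only one of the 6 called in all libraries. Its signals were 6.05, 12.2 and 8.57 CPM without dox and 5.58, 15.3 and 18.4 CPM with dox, so the groups overlapped. The sarcomere list of 20 genes had 1 site, nearest to Ttn, the giant spring protein of the sarcomere, called in 3 libraries.

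The growth factor and matrix lists had the highest counts of sites, but only the matrix share was above that of other distal regions. These shares were not tested. Growth factor signalling and feedback, 24 genes, were nearest to 18 sites (0.793%, against 0.921% of other distal regions), led by Smad3 with 4 and Smad7 and Tgfbr2 with 3 each, all of the TGF-beta pathway. The site in an intron of Smad3 at chr9:63736801-63738850 had 3.72, 5.42 and 6.43 CPM without dox and 4.18, 5.005 and 22.4 CPM with dox. Its highest value was that of +dox replicate 3, and the other 5 were close together. Matrix genes, 16 in the list, were also nearest to 18 sites (0.793%, against 0.535%), with 8 near Col5a1 and 5 near Col4a2, collagen genes of fibrils and basement membranes.

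The 2270 sites had 1653 nearest genes, of which 1268 had 1 site and 27 had 5 or more. Runx1, Col5a1 and Fam92b had 8 each, and 1810010D01Rik and Nfatc2 had 7 each. The Runx1 sites stretched over chr16:92779951-93107950, with 2 of the 8 inside the gene and 4 called in all 6 libraries. The Col5a1 sites stretched over chr2:27798701-27938000, and 2 were called in all 6. At the strongest of them, chr2:27801351-27804900, the signals were 25.6, 34.8 and 11.6 CPM without dox and 87.2, 43.4 and 26.4 CPM with dox. At another, chr2:27833901-27837100, they were 11.2, 18.5 and 18.4 CPM without dox and 5.58, 13.9 and 17.2 CPM with dox. So 2 sites near 1 gene ran in opposite directions in each pair of same-numbered libraries. The log2 differences were 1.09 ± 0.604 (SE, limma adjusted p = 0.2241, and 0.01591 with the block) and -0.51 ± 0.579 (limma adjusted p = 0.491). Centred they were 0.17 and -1.43, and neither passed with the block (limma adjusted p = 0.8641 and 0.363). The pair of the first, 29 bp apart, is shown because it lay within 100 bp of the maximum in 5 of 6 libraries.
Col5a1, chr2:27802713-27802784: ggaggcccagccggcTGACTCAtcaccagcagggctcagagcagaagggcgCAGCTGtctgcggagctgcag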

How the data were processed

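Signal values were the authors' own. According to the study's methods and the labels, reads were processed by the authors with nf-core/cutandrun 3.2.2 on mm10, blacklisted regions were removed, coverage was scaled to CPM, and SEACR in relaxed mode called peaks in each library. Deposited lists give total and maximum signal per peak on a 50 bp grid. No spike-in scale is given in the sources used here. The build was checked: 0 peaks of 116126 ended past a chromosome of GRCm38, the assembly behind mm10. Annotation was GENCODE M21 basic.

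Members and lists were chosen with earlier results of these data known. Named sites were the 8 highest called in all 6 libraries, up to 6 gained and 4 lost with dox, the 6 closest pairs, up to 3 per gene list, and the 5 genes with most sites. The rule also allowed sites past limma's threshold, and there were 0. The sequences came from RefSeq's GRCm38 genome.

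Group means were compared by exact permutation over 20 assignments, and classes within libraries by exact sign-flips over 64 patterns, with Benjamini-Hochberg adjustment over 10 tests. Libraries share cell source and clone, so p-values measure the spread between these cultures. Single sites used limma 3.58.1 in R 4.3.3 on log2 maximum signal with no pseudocount, and called a site at an adjusted p under 0.05. Other steps used Python 3.11.15, NumPy 2.4.6 and pandas 2.3.3. Code was tested on simulated data. Deviations from group means correlated between same-numbered libraries at 0.485, 0.267 and 0.628 over the 4838 regions. Libraries of unlike number were not compared in this way. Both libraries numbered 3 stood apart, so these values cannot show that replicates 1 and 2 were pairs. Taking the numbers as pairs, in the block and in the paired tests, was thus an assumption that the labels do not state.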

Additional observations from a re-analysis of the deposited data

How the results depend on the processing

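Limits first. The lists hold called peaks only, relaxed calling had a different floor in each library, and the libraries numbered 3 differed from the other 4 in that floor. Motif classes depend on the width of the merged interval. No exact test could pass an adjusted 0.05 with so few libraries. Leaving out each library in turn moved the difference in calls between -7.40 and 19.1 points and that in height between -7.28 and 10.98, with the lowest values without +dox replicate 3. It gave 0 to 123 sites up and 0 to 3 down in limma, where 123 were 18.7% of sites against 40.4% of all regions. At Susd1 it moved the log2 difference between -0.10 and 0.37, and at Pax7 between -0.21 and 0.61. With the replicate block limma called 277 sites up (42.2%, against 53.5% of all regions), and 0 once libraries were also centred. The paired exact tests gave p = 0.25 for calls and 1 for height, against the smallest possible 0.25.

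With lists of equal length the dox difference was -2.32 points in calls and -2.79 in height, and the difference in height from AP-1 only regions was 18.2. By total signal the height differences were 6.43 from E-box only, 15.6 from AP-1 only and 26.2 from neither. With uncalled regions at 0 they were 6.37, 13.1 and 19.0, each with p = 0.125 by the exact sign-flip test. Within 50 bp of the maximum the E-box led AP-1 by 18.2 points, and AP-1 in the sites differed from AP-1 only regions by -3.95. Within 250 bp the E-box led by 14.8, and differed from E-box only regions by -3.78.

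Some settings were chosen after seeing the data. In regions with 1 copy of each motif held, the E-box led AP-1 by 12.8 points and differed from E-box only regions by -3.66. With replicates 1 and 2 only the height difference was -6.25, limma called 107 sites up (16.3%, against 35.1% of all regions) and 3 down, and the log2 difference at Pax7 was -0.14. The libraries numbered 3 alone gave dox differences of 23.3 in height, 12.9 points for the E-box and 10.5 for AP-1 at the maximum. With libraries centred on their medians, with or without the block, the log2 differences were -0.10 at Runx1, -0.13 at Shb, -0.78 at Susd1, -0.66 at Pax7 and -0.44 at the first Mef2a site. In 142 other cases a main comparison kept its sign with a shift smaller than the spread between libraries, or kept its count of calls. The causes were not tested.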
